A study of Caenorhabditis elegans with 14 samples.

Results

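Transcript levels of wild-type N2 Caenorhabditis elegans kept in a weak continuous microwave field were compared with those of worms kept without a field at a matched temperature. The comparison used the 10 arrays titled Sham or Microwave, 5 of each, of 14 in the series, and they were selected by title alone. Worms were grown at 15 °C to the L4 stage, the last larval stage, rinsed into a salt solution and placed in well plates for 2.5 h at 26 °C. Microwave worms lay in a modified, silver-plated transmission line cell and sham worms in an unmodified copper cell, so the field and the cell cannot be told apart here. By the labels, worms absorbed between 5 and 40 mW per kg depending on the well, and the cells had earlier been measured to differ by 0.1 °C. The frequency is 1.8 GHz in one protocol and 1 GHz at 0.5 W in another. Each array carried RNA pooled from 3 exposure runs made on different days, 15 exposures per group in all, and no run was measured on its own. The labels do not say whether arrays of the same number share exposure runs. The 4 remaining arrays were labelled heat control or heat shock, 2 each, and the sources used here do not give their temperature or duration.

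When proteins unfold in a heated cell, the transcription factor HSF-1 switches on genes for chaperones, proteins that hold or refold other proteins. In the worm the small heat shock proteins of the hsp-16 family and the inducible hsp-70 are nearly silent in unstressed animals and are strongly induced by heat, which has made hsp-16 reporters a common readout of stress. Further compartments and stresses have their own programmes, among them the unfolded protein responses of the endoplasmic reticulum and of mitochondria, the HIF-1 response to low oxygen and the p53-like CEP-1 response to DNA damage.

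All sham values equalled 1 (0 exceptions), so each microwave value was read as a linear ratio to its like-numbered sham array, and is given below as log2(microwave/sham) for pairs 1 to 5 in that order. Such ratios carry no level, so neither the detection of a transcript nor the labelled stage could be checked against marker genes, and in whole worms fewer cells of a type and less RNA per cell cannot be told apart. Pair 1 stood apart. The standard deviation of its log2 ratios over 22548 probe sets was 0.387, against 0.101, 0.164, 0.147 and 0.132 in pairs 2 to 5. Of the 17118 genes measured, 1295 lay over 1.5-fold higher in pair 1 (7.57% of genes) and 429 over 1.5-fold lower (2.51%). In pair 2 there were 0 such genes either way. Pair 3 had 12 higher (0.0701%) and 6 lower (0.0351%), pair 4 had 3 higher (0.0175%) and 8 lower (0.0467%), and pair 5 had 4 higher (0.0234%) and 0 lower. List medians below are therefore given with and without pair 1.

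Bacterial and phage transcripts that are added to each hybridisation as controls also differed between the arrays of a pair. Their 18 probe sets (bioB, bioC, bioD and cre) had a mean log2 ratio of -1.31 in pair 1, -0.31 in pair 2, -0.091 in pair 3, 0.33 in pair 4 and -0.042 in pair 5. The pairs thus ordered as 1, 2, 3, 5 and 4 from low to high. Over the 5 pairs the mean was -0.29 ± 0.62 (SD, n = 5), and an exact two-sided sign-flip permutation test gave p = 0.375, and 5 pairs cannot bring this test below 0.05. The 5' probe sets of 5 worm control transcripts ran the other way at the ends of that order, at 0.96 in pair 1 and -0.11 in pair 4, with 0.14, 0.12 and 0.15 in pairs 2, 3 and 5. Their 3' probe sets differed less, at 0.22, 0.008, 0.013, -0.074 and 0.044. The controls did not all differ alike. The 5' probe set of the worm control gly14 gave -0.044, 0.006, -0.16, -0.085 and -0.089. A further 27 control probe sets, for poly-A spike-in transcripts, had means of -0.051, 0.016, -0.015, 0.025 and 0.01. As ratios carry no level, whether those transcripts were present is not known. The part of these control differences in the gene values was not tested.

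**Figure D1:**
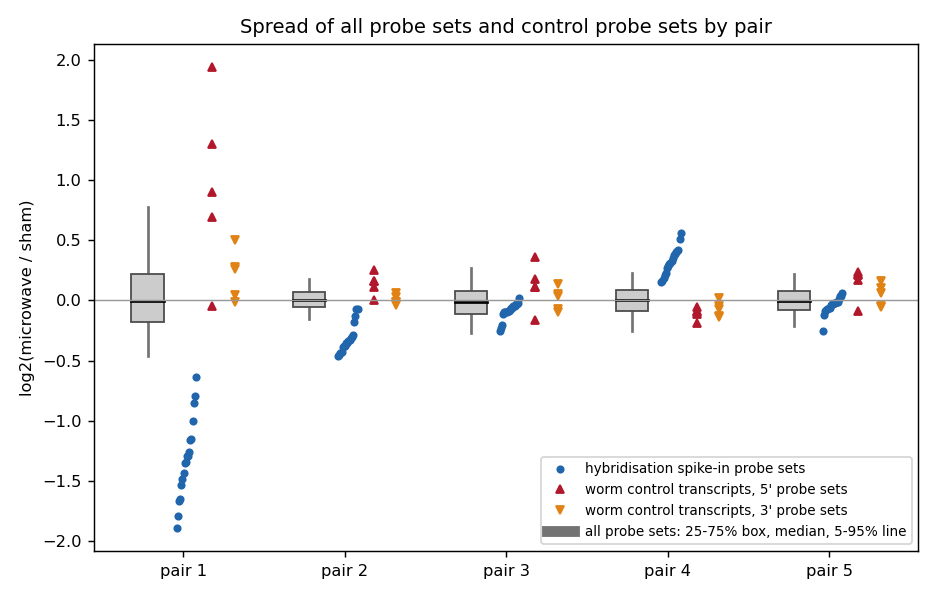
Log2(microwave/sham) on the vertical axis for each of the 5 pairs: grey boxes and lines give the interquartile range and a wider central range of all 22548 probe sets with the median, blue points the 18 hybridisation spike-in probe sets, and triangles the 5' and 3' probe sets of 5 worm control transcripts. Pair 1 has the widest box and the lowest spike-ins (mean -1.31), and pair 4 is the pair with spike-ins above 0 (mean 0.33).

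Across all genes the comparison gave no call. Of 22548 probe sets 0 passed an adjusted p of 0.05, and 782 had an unadjusted p under 0.05 (3.47%), 460 higher (2.04%) and 322 lower (1.43%). At gene level 0 of 17118 genes passed an adjusted p of 0.05 (0% called; limma, Benjamini-Hochberg), and 571 had an unadjusted p under 0.05 (3.34%), 297 higher (1.74%) and 274 lower (1.6%). The lowest adjusted p was 0.872. For 16846 genes (98.4%) both ends of the 95% interval were under a 1.5-fold difference. A gene could also keep the same sign in every pair: 445 genes stood above 0 in 5 of 5 pairs (2.6%) and 570 below 0 (3.33%). Without pair 1, 859 genes were above 0 in all of pairs 2 to 5 (5.02%) and 1023 below (5.98%).

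The heat-inducible chaperone genes showed no common direction. The small heat shock protein gene hsp-16.2 had log2 ratios of -0.54, 0.043, -0.44, 0.55 and -0.50, a mean of -0.18 ± 0.16 (SE, n = 5) with a 95% interval of -0.55 to 0.19 (limma adjusted p = 0.872). Its divergently placed neighbour hsp-16.41 had -0.20, 0.017, -0.47, 0.40 and -0.19. Both were lower in pairs 1, 3 and 5, near 0 in pair 2 and higher in pair 4. The remaining hsp-16 genes come in near-identical copies that share a probe set, so their single genes cannot be separated. The probe set of hsp-16.1 and hsp-16.11 gave -0.54, 0.13, -0.26, 0.43 and -0.15, and that of hsp-16.48 and hsp-16.49 gave -0.49, 0.027, -0.13, 0.39 and -0.25. All 4 hsp-16 probe sets were above 0 in pairs 2 and 4 and below 0 in pairs 1, 3 and 5, and since these genes are similar in sequence the 4 may not be independent readings. Without pair 1 their means were -0.086, -0.062, 0.039 and 0.01. For the 3 singly measured genes of this list, hsp-70 included, the median was -0.089, and -0.062 without pair 1.

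In contrast to the hsp-16 genes, the cytosolic hsp-70 lay above 0 in every pair (2.6% of all genes did), at 0.19, 0.21, 0.11, 0.031 and 0.18. The mean of 0.14 ± 0.049 (SE, n = 5; 95% interval 0.027 to 0.26) corresponds to 1.1-fold, and it did not pass after adjustment (limma adjusted p = 0.872). The suffix of its probe set also marks possible matches to other genes. The paralogous inducible Hsp70 genes F44E5.4 and F44E5.5 share 2 probe sets, which disagreed in pair 1. One gave -0.94, 0.30, -0.077, 0.50 and 0.14, the other 0.51, 0.16, -0.13, 0.12 and 0.11.

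Regulators of the heat shock response differed in direction between pairs. For hsf-1, the gene of the transcription factor itself, the values were 0.39, 0.13, 0.009, -0.28 and 0.082, and for its inhibitor hsb-1 they were 0.32, 0.032, -0.19, 0.003 and -0.009. Of 5 measured members of this list 4 had a mean above 0 (48.6% of all genes did), with a median of 0.03. Without pair 1 the median was -0.016, with 1 above 0 (45.7% of all genes). The ddl-1 gene, whose product binds HSB-1, was above 0 in 5 of 5 pairs (2.6% of all genes were), at a mean of 0.073 ± 0.047.

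The constitutive cytosolic chaperones had their highest list median in pair 1, at 0.47, against -0.017 to 0.063 in the others. The Hsp70 gene hsp-1 gave 0.58, 0.17, 0.088, -0.022 and 0.17, and the Hsp90 gene hsp-90 gave 0.38, -0.012, -0.024, -0.057 and 0.07. The nucleotide exchange factor gene hsp-110 stood at 0.58, 0.16, 0.28, -0.017 and 0.15. In these 3 genes pair 1 was the highest and pair 4 the lowest. Of 15 measured members 12 had a mean above 0 (48.6% of all genes did), and the list median was 0.11 with pair 1 and 0.005 without it. The largest mean was that of the kinase co-chaperone cdc-37, at 0.29 ± 0.12 and 0.15 without pair 1.

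**Figure D2:**
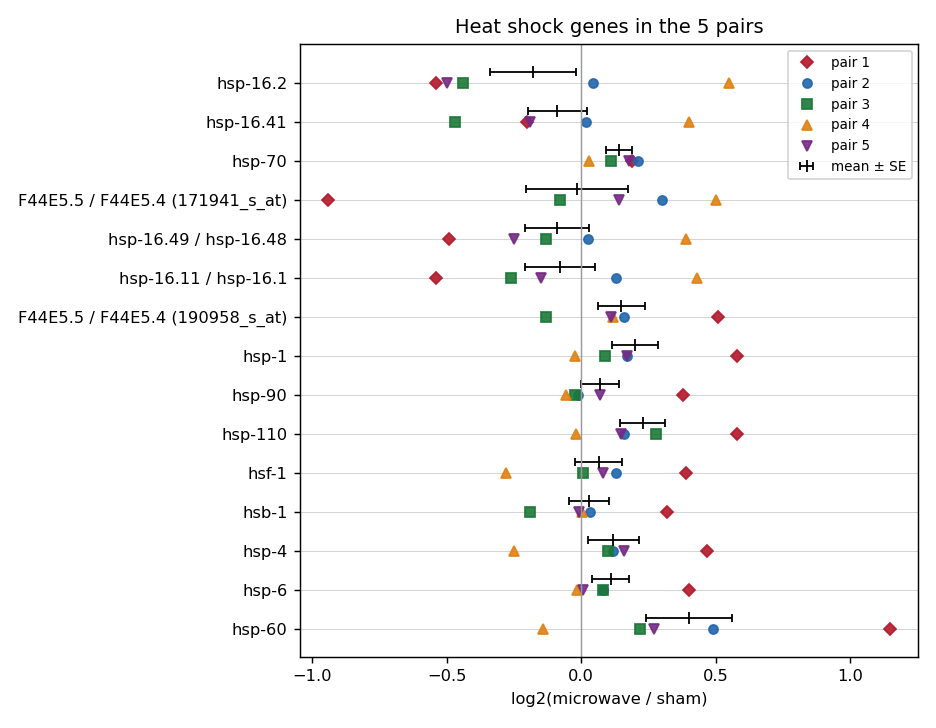
Log2(microwave/sham) on the horizontal axis for single heat shock genes and for probe sets shared by 2 genes, with one symbol per pair and the mean ± SE above them in black. The hsp-16 rows share a pattern, with pair 4 between 0.39 and 0.55 and pairs 1, 3 and 5 below 0, while hsp-70 lies between 0.031 and 0.21 in every pair.

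In their list medians, folding and quality control in organelles followed the pattern of the cytosolic chaperones. Medians were 0.37 (endoplasmic reticulum) and 0.31 (mitochondria) in pair 1, and -0.091 for both in pair 4. Single members could run the other way. The mitochondrial list gene ubl-5 stood at -0.44 in pair 1 and 0.44 in pair 4, and the cytosolic list gene sti-1 at -0.43 and 0.24. In the endoplasmic reticulum the BiP gene hsp-3 gave 0.79, 0.29, 0.31, -0.12 and 0.30, and its inducible counterpart hsp-4 gave 0.47, 0.12, 0.10, -0.25 and 0.16. The list of 21 genes had a median of 0.084. Without pair 1 it was -0.003, and 10 members were then above 0 (45.7% of all genes). The mitochondrial chaperonin hsp-60 stood at 1.15, 0.49, 0.22, -0.14 and 0.27, a mean of 0.40 ± 0.16 (SE, n = 5) whose 95% interval ran from 0.025 to 0.77 (limma adjusted p = 0.872), and its 2 probe sets had means of 0.28 and 0.51. It had the highest mean among the 408 genes of the 25 pathway lists. The mitochondrial Hsp70 hsp-6 gave 0.40, 0.083, 0.08, -0.014 and 0.006, and atfs-1, for the transcription factor of the mitochondrial response, 0.94, 0.26, 0.11, -0.045 and 0.013. The 12 mitochondrial genes had a median of 0.06, and of 0.017 without pair 1.

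Proteasome subunit genes, whose products form the machine that degrades ubiquitin-tagged proteins, had the highest median of the 25 pathway lists. All 32 measured genes had a mean above 0 (48.6% of all genes did), with a list median of 0.12. In pair 1 their median was 0.60, 31 were above 0 (8198 of all 17118 genes were) and 17 were over 1.5-fold higher (7.57% of all genes). Pairs 2 to 5 had medians of 0.089, -0.014, -0.015 and 0.04. There 28, 15, 13 and 22 were above 0, against 9053, 7331, 9076 and 8175 of all 17118 genes. The core subunit gene pas-7 gave 1.19, 0.14, 0.12, 0.05 and 0.05, the lid subunit gene rpn-11 1.18, 0.21, -0.003, -0.11 and 0.12, and the base subunit gene rpn-1 0.82, 0.13, 0.31, 0.061 and 0.15. Without pair 1 the list median was 0.004, with 17 of 32 genes above 0, against 45.7% of all genes. The 20 autophagy genes had a median of 0.10, and of -0.004 without pair 1, with pair medians of 0.42 in pair 1 and between -0.066 and 0.056 in the others. Their largest mean belonged to epg-4, for a membrane protein of autophagosome formation, at 1.83, -0.001, -0.20, -0.038 and 0.17.

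Genes of cell division also had far higher values in pair 1 than in the other pairs. Of 27 cell cycle genes 25 had a mean above 0 (48.6% of all genes), and 13 were over 1.5-fold higher in pair 1 (7.57% of all genes), where the median was 0.58. The list median was 0.11, and 0.013 without pair 1, when 16 were above 0 (45.7% of all genes). In pairs 2 to 5 the medians were 0.009, 0.044, -0.083 and 0.066. In pair 4, 5 of 27 genes were above 0 (9076 of all 17118 genes were). The S phase cyclin gene cye-1 gave 1.03, 0.18, 0.30, -0.066 and 0.26, and the Aurora kinase gene air-1 gave 1.29, 0.10, -0.044, -0.025 and -0.032. In the L4 worm dividing cells are chiefly germ cells, and 15 germ line markers had medians of 0.55 in pair 1, 0.059, 0.16 and 0.057 in pairs 2, 3 and 5, and -0.12 in pair 4. Oocyte and eggshell markers stood at 0.52 in pair 1 and sperm markers at -0.22, with 0.31 for intestine, 0.18 for body wall muscle, -0.20 for pharynx, -0.046 for neurons and -0.019 for epidermis. Without pair 1 the marker medians were 0.034 for germ line, -0.029 for oocyte and eggshell, 0.03 for sperm, 0.042 for intestine, 0.11 for body wall muscle, 0.039 for pharynx, 0.006 for neurons and 0.038 for epidermis. The part of tissue makeup in the pair 1 values was not tested.

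Genes of the DNA damage response showed no shared difference outside pair 1. The p53-like transcription factor gene cep-1 gave 0.97, -0.008, -0.14, -0.03 and 0.04. Its target egl-1, which starts programmed cell death, gave -0.032, -0.17, 0.07, 0.03 and -0.11, a mean of -0.042 ± 0.054 with a 95% interval of -0.17 to 0.083. The recombinase gene rad-51 stood at 1.19, 0.04, -0.038, -0.076 and 0.021. In cep-1 and rad-51 pair 1 stood far above the other pairs. The 24 genes had a median of 0.039, and of -0.009 without pair 1, when 10 were above 0 (45.7% of all genes).

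Thermosensation was examined because the exposure cells differed in temperature by 0.1 °C. The AFD neurons, which sense warmth in the worm, use the receptor guanylyl cyclases encoded by gcy-8, gcy-18 and gcy-23. Values were -0.092, -0.038, -0.094, 0.054 and -0.06 for gcy-8, 0.077, 0.003, 0.24, 0.007 and -0.16 for gcy-18, and 0.15, -0.089, 0.11, 0.16 and 0.13 for gcy-23. Their 95% intervals were -0.16 to 0.065, -0.12 to 0.18 and -0.037 to 0.22, and none of the 3 genes lay on one side of 0 in all pairs. Of 13 measured genes of the list 7 had a mean above 0 (48.6% of all genes did), with a median of 0.008. Without pair 1 the median was 0.021. The interval of all 13 lay within 1.5-fold, as it did for 98.4% of all genes. AFD is a single pair of cells, so transcripts made there alone are a small part of whole-worm RNA.

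Calcium handling and membrane excitability genes gave small values whose sign differed between pairs. The calcineurin gene tax-6, for a calcium-dependent phosphatase, gave 0.59, 0.31, 0.28, -0.10 and 0.26, a mean of 0.27 ± 0.091 (limma adjusted p = 0.872). The calcium pump gene sca-1 stood at 0.41, 0.019, 0.49, -0.11 and 0.18, and unc-36, for an accessory subunit of voltage-gated calcium channels, at 0.016, 0.051, -0.25, -0.33 and -0.15. Over 21 genes the pair medians were 0.12, 0.038, 0.07, -0.11 and 0.095, so pair 4 was again on the other side, and the list median was 0.083 with pair 1 and 0.023 without it. The 17 ion channel and pump genes had a median of -0.018, and of 0.027 without pair 1. Their largest mean was 0.13 ± 0.068, in the sodium pump gene eat-6. The 25 innexins, which form gap junctions, had a median of 0.027, and of -0.009 without pair 1. In the list of 21 neurotransmission genes the median was -0.004, and -0.022 without pair 1, and the syntaxin gene unc-64 had the lowest mean at -0.20 ± 0.09, with -0.52 in pair 3.

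Responses to low oxygen, salt and lack of food were examined since the worms lay in a salt solution for the exposure. Sham worms lay in it too, so the ratios can show a difference between the groups but not a response to the solution itself. The HIF-1 target nhr-57 gave -0.051, -0.13, -0.042, 0.17 and 0.12, and F22B5.4, a further HIF-1 target, gave -0.38, -0.082, -0.072, -0.19 and -0.16. F22B5.4 was thus below 0 in 5 of 5 pairs (3.33% of all genes were), at a mean of -0.18 ± 0.059 (limma adjusted p = 0.872). The hif-1 probe set, left out of the gene values because its annotation lists 2 gene identifiers, gave 0.60, 0.20, 0.23, 0.057 and 0.28. It was above 0 in all 5 pairs, with a mean of 0.27 ± 0.08 and a 95% interval of 0.088 to 0.46 (limma adjusted p over probe sets = 0.861), and it was singled out after its values were seen. The probe set of egl-9, a further gene of this list left out for the same reason, gave -0.077, 0.11, -0.18, 0.021 and 0.057. Its mean was -0.015 ± 0.058, with a 95% interval of -0.15 to 0.12. The list of 9 hypoxia genes had a median of -0.038, and of 0.006 without pair 1.

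The osmotic marker gpdh-1, for a glycerol-making enzyme that high salt induces strongly, stood at -0.19, -0.016, -0.16, 0.033 and 0.28, and its list of 12 genes at a median of 0.048. The fasting-induced acyl-CoA synthetase gene acs-2 gave -0.12, 0.004, 0.10, 0.16 and -0.031, and the 17 genes of its list a median of 0.023. Neither marker kept a sign. Without pair 1 these medians were 0.026 and -0.021. The interval of every member of both lists lay within 1.5-fold, as it did for 98.4% of all genes.

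Genes of defence against oxidants and metals differed in direction among themselves. The 20 oxidative defence genes had a median of 0, with 10 above 0 (48.6% of all genes). Without pair 1 the median was -0.02, with 5 above 0 (45.7% of all genes). The Nrf-like factor gene skn-1 gave 0.86, 0.15, 0.22, 0.005 and 0.14, above 0 in every pair (2.6% of all genes were). The mitochondrial thioredoxin gene trx-2 gave -0.45, 0.075, -0.40, 0.22 and -0.28. The metallothionein gene mtl-1 stood at -0.42, -0.026, -0.28, 0.18 and -0.23, and the cadmium-responsive cdr-4 at -0.23, -0.022, -0.24, 0.30 and -0.26. As in hsp-16.2, pair 4 was the highest in trx-2, mtl-1 and cdr-4, and pairs 1, 3 and 5 were below 0. Other members were above 0 in pair 1, among them the superoxide dismutase gene sod-1 at 0.85 in pair 1, wdr-23, for a negative regulator of SKN-1, at 0.94 in pair 1 and -0.35 in pair 4, and the phytochelatin genes pcs-1 and hmt-1 at 0.71 and 0.77 in pair 1 and -0.16 and -0.35 in pair 4. The 9 metal response genes had medians of -0.16, 0.011, -0.18, 0.16 and -0.041 in the 5 pairs, and a list median of -0.012 with and without pair 1.

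Structural, developmental and housekeeping groups completed the lists. Of 20 cytoskeleton genes 18 had a mean above 0 (48.6% of all genes), and 4 were above 0 in 5 of 5 pairs (2.6% of all genes), among them the profilin gene pfn-1 (0.84, 0.21, 0.043, 0.061 and 0.24) and the intestinal actin gene act-5 (0.57, 0.37, 0.066, 0.026 and 0.24). Their median was 0.085, and 0.055 without pair 1, the highest of the 25 lists on that basis. The 20 translation factor genes had a median of 0.052, and all 20 had a mean above 0 (48.6% of all genes), while without pair 1 the median was 0.036 and 15 were above 0 (45.7% of all genes). Spliceosome genes had medians of 0.28 in pair 1 and -0.20 in pair 3, and a list median of 0.055 with pair 1 and -0.001 without it. In pair 3 the list was split. There snr-1 to snr-7 lay between -0.40 and -0.19, and prp-8, uaf-1, uaf-2, snrp-200 and rnp-7 between 0.13 and 0.37. The 17 insulin pathway genes had a median of 0.03, and of -0.012 without pair 1.

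Stage-linked genes were examined because L4 worms approach the last moult. In the 17 moulting genes the median was 0.02, and 0.043 without pair 1, and the means ranged from -0.28 ± 0.21 for the protease inhibitor gene bli-5 (-1.37 in pair 1) to 0.31 ± 0.081 for noah-2, for a protein of the apical matrix, which gave 0.38, 0.25, 0.28, 0.023 and 0.60. The adult cuticle collagen gene col-19 gave 0.062, -0.004, 0.003, -0.086 and 0.12, a mean of 0.018 ± 0.050, and with col-63 the collagen median was -0.024, and -0.023 without pair 1. The probe set shared by col-7 and col-62 was below 0 in all pairs, at a mean of -0.091 ± 0.048 (limma adjusted p over probe sets = 0.861).

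Over the 25 lists together, 408 distinct genes were measured, of which 0 passed the adjusted threshold. Their median was 0.052 with all pairs and 0.003 without pair 1, against -0.003 and -0.006 over all genes. Of the 408, 17 were above 0 in 5 of 5 pairs (4.17%, against 2.6% of all genes) and 4 below (0.98%, against 3.33%). List medians above 0 numbered 19 of 25 in pair 1, 22 in pair 2, 14 in pair 3, 9 in pair 4 and 17 in pair 5. The lists were chosen for stress and housekeeping roles, so they are no sample of all genes.

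**Figure D3:**
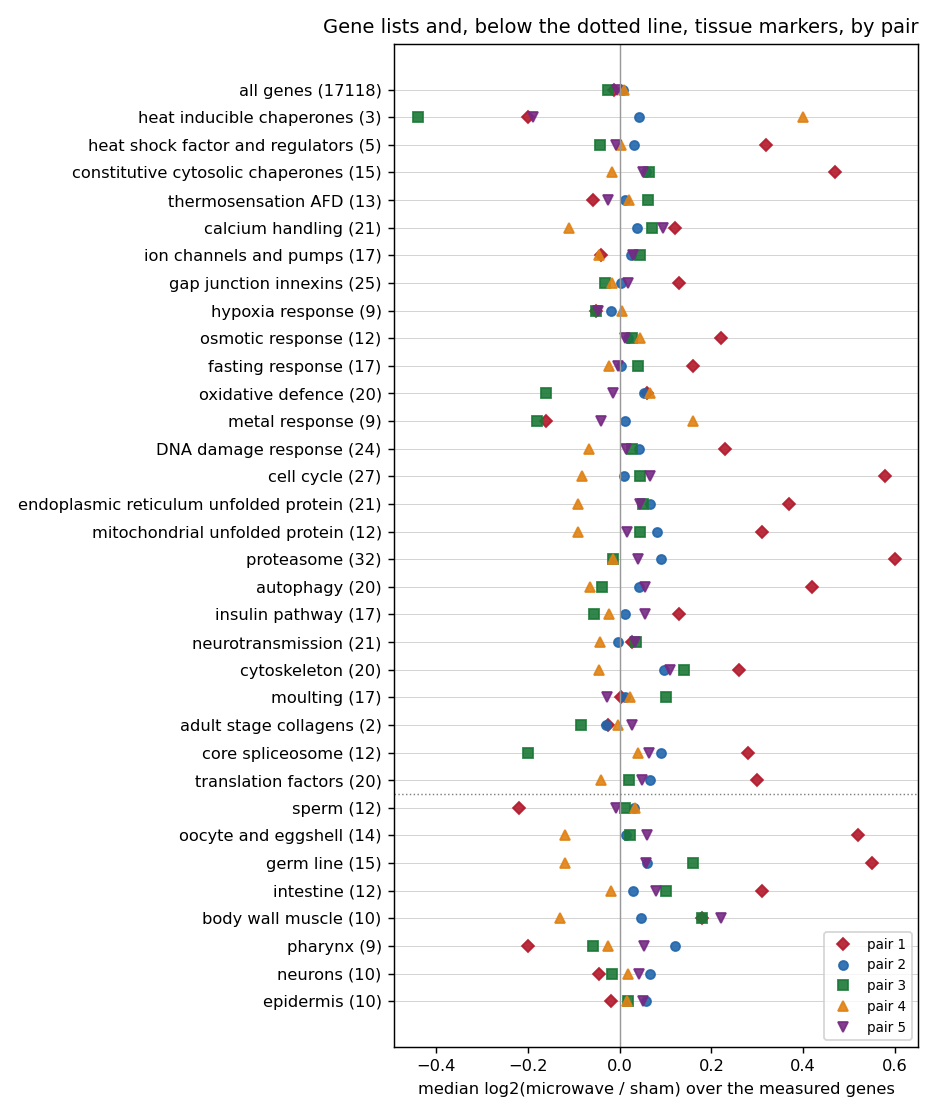
Median log2(microwave/sham) of each gene list on the horizontal axis, one symbol per pair, with the number of measured genes in brackets. Red diamonds of pair 1 reach 0.60 in the proteasome list and the 3 heat-inducible chaperone genes span the widest range, from -0.44 in pair 3 to 0.40 in pair 4.

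Genes on the same side of 0 in every pair were ranked by their mean. The 10 highest ran from 0.31 to 0.46 and the 10 lowest from -0.24 to -0.29, each with a limma adjusted p of 0.872. They were picked for that agreement and for size, so their signs are a description. The yolk protein gene vit-4 led with 1.62, 0.047, 0.30, 0.11 and 0.22. That value rested on 1 of its 3 probe sets, which gave 4.53, 0.23, 0.63, 0.40 and 0.51, while the other two had means of 0.057 and 0.052. It was also the 1 probe set with a mean past 2-fold. The suffixes of all 3 mark possible matches to other genes, and the yolk protein genes are similar in sequence. Next came C06A1.4 at 0.42 ± 0.17, the phosphatase gene cnep-1 at 0.39 ± 0.22, and pod-2, for acetyl-CoA carboxylase, the first step of fatty acid synthesis, at 0.36 ± 0.18.

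Smaller pair 1 values were seen in other genes of that ranking. The deubiquitinase gene usp-5 gave 0.73, 0.28, 0.60, 0.037 and 0.11, and sec-61.A, for the channel through which proteins enter the endoplasmic reticulum, gave 0.76, 0.24, 0.36, 0.13 and 0.14. M57.2 stood at 0.64, 0.17, 0.40, 0.069 and 0.27. Among the 10 highest the lowest mean without pair 1 was that of the pantothenate kinase gene pnk-1, at 0.079, and the highest was that of usp-5, at 0.26. The casein kinase gene kin-19 stood at a mean of 0.33 ± 0.14 and the mitochondrial import gene tin-9.2 at 0.33 ± 0.15.

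The genes lowest in every pair were led by W02B3.3 at -0.52, -0.02, -0.34, -0.14 and -0.42. The ferritin gene ftn-1, for the iron storage protein of the intestine, gave -0.36, -0.40, -0.095, -0.14 and -0.23, a mean of -0.25 ± 0.061 (SE, n = 5; -0.22 without pair 1). Unlike most genes of this ranking it was lowest in pair 2 and not in pair 1. The Rab regulator gene tbc-11 stood at -0.67, -0.20, -0.11, -0.23 and -0.14, and the prolyl isomerase gene fkb-4 at -0.49, -0.18, -0.28, -0.14 and -0.12. Means of the homeobox gene ceh-81, the chemoreceptor gene sri-30, hpo-2, ZK930.2, C27D8.2 and F36F2.2 lay between -0.25 and -0.27.

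**Figure D4:**
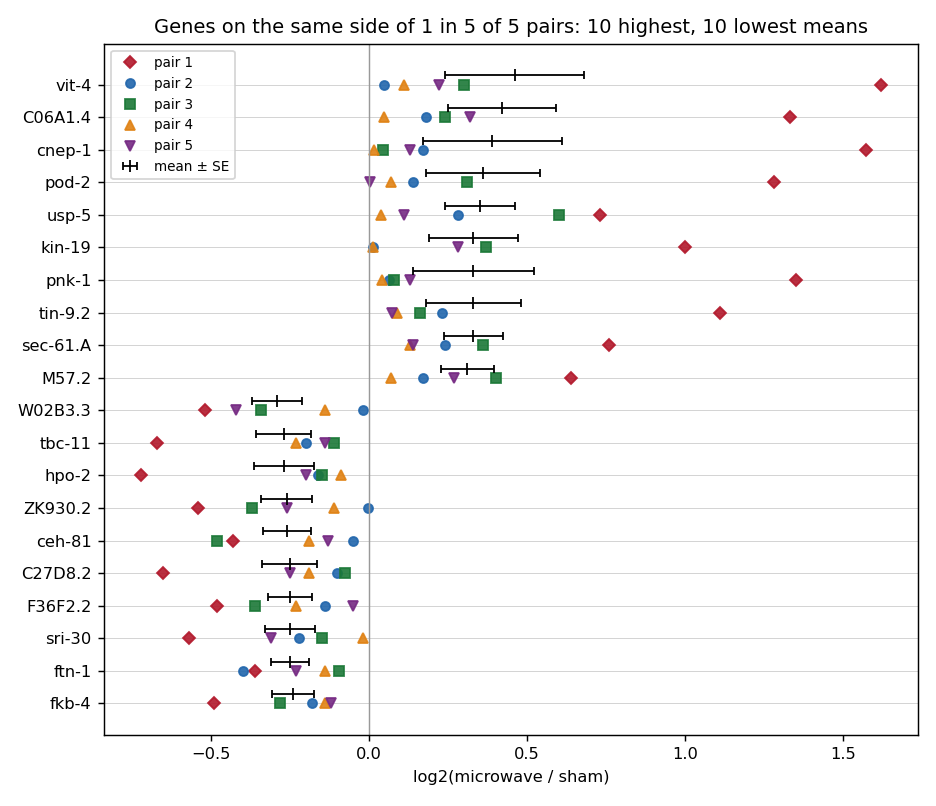
The 10 highest and 10 lowest mean log2 ratios among genes on one side of 0 in all 5 pairs, with one symbol per pair and the mean ± SE above in black. Pair 1 is the farthest from 0 in all 10 of the upper genes, and ftn-1 and ceh-81 are the lower genes where another pair is farthest.

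The genes most extreme in pair 1 had means closer to 0 over pairs 2 to 5, between -0.076 and 0.19. In pair 4, T26A5.2 stood at -0.54 and nssp-41 at 0.54. Among the highest were T26A5.2 at 1.90, the ESCRT-III gene vps-32.1 at 1.85, the guanine nucleotide exchange factor gene grp-1 and the autophagy gene epg-4 at 1.83 each, and pgm-3, for an enzyme of amino sugar metabolism, at 1.82. Their means over pairs 2 to 5 lay between -0.076 and 0.006. Lowest were the ribosomal RNA gene rrn-3.56 at -2.65, the pterin synthase gene ptps-1 at -1.72, C10G8.4 at -1.64, nssp-39 at -1.47, gplb-1 at -1.45 and nssp-41 at -1.37, with means over pairs 2 to 5 from -0.061 to 0.19. These genes were chosen for pair 1, so the contrast follows in part from the choice.

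Genes with the highest means over pairs 2 to 5 included myo-2, myo-1, noah-2 and usp-5. The pharyngeal myosin gene myo-2 gave -0.11, 0.055, 0.75, -0.035 and 0.78, and its relative myo-1 gave 0.54, 0.12, 0.40, -0.30 and 0.78. Both were high in pairs 3 and 5. The ribosomal RNA gene rrn-3.1, over 5 probe sets, stood at -1.36, -0.058, 0.31, -0.009 and 0.83, while Y73B3B.5 had a mean of 0.31 over these 4 pairs. The lowest means were those of R02F11.1 at -0.28, him-18, for a nuclease scaffold of meiotic repair, at -0.24, with -0.84 in pair 4, and the corepressor gene sin-3 and W02B3.3 at -0.23 each. F41E6.12 and ftn-1 followed at -0.22.

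Few genes passed 1.5-fold in more than 1 pair, and 0 did in 3. The higher ones were larp-5 and usp-5 in pairs 1 and 3 and myo-2 in pairs 3 and 5, and the lower ones B0416.4, C50F4.4, F59C12.4 and icap-1 in pairs 1 and 3. The 7 were named after their values were seen. F59C12.4 gave -0.99, 0.12, -0.84, 0.40 and -0.33, and icap-1 gave -0.72, 0.18, -0.63, 0.47 and -0.39. In pair 4, where pairs 1 and 3 were low, C50F4.4 stood at 0.35, so in these 3 genes pair 4 was the highest. Of the 6 genes over 1.5-fold lower in pair 3, 4 were also so in pair 1 (66.7%, against 2.51% of all genes). These are 0.932% of the 429 in pair 1. Of the 12 over 1.5-fold higher in pair 3, 2 were also so in pair 1 (16.7%, against 7.57% of all genes).

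Similarity between pairs, over 17118 genes that are not independent replicates, ranged from r = -0.38 for pairs 1 and 4 to r = 0.33 for pairs 3 and 5. Pairs 3 and 4 stood at r = -0.32, pairs 4 and 5 at -0.24, pairs 1 and 5 at 0.22, pairs 1 and 3 at 0.19 and pairs 1 and 2 at 0.17. The other 3 lay between -0.05 and 0.06. For 2981 genes with at least 2 probe sets, the first 2 correlated across genes at 0.40, 0.157, 0.519, 0.535 and 0.215 in pairs 1 to 5. Probe sets of a gene therefore moved together most in pairs 3 and 4, which ran in opposite directions, although probe sets of a gene can overlap in sequence.

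Gene length ordered the ratios in 4 of the 5 pairs. Genes in the shortest quartile of genomic length (median 969 bp, RefSeq) had medians of -0.12, 0.014, -0.077, 0.058 and -0.029, and those in the longest (median 6113 bp) had 0.059, 0.009, 0.029, -0.036 and 0.024. Long genes thus stood above short ones in pairs 1, 3 and 5 and below them in pair 4, and in pair 2 the 4 medians lay between 0.003 and 0.014. The genes hsp-16.2, hsp-16.41, trx-2 and mtl-1 are short, with spans of 624, 698, 624 and 493 bp, and the signs of their pairs matched those of the shortest quartile, except pair 2 of mtl-1. Short genes did not all do so: ddl-1, of 726 bp, was above 0 and W02B3.3, of 336 bp, below 0 in every pair. The part of length, or of anything that goes with it, in those values was not tested.

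Genes that differed between the heat arrays were then read in the microwave pairs, which share no array with them. In that comparison 2600 genes were higher (15.2%) and 2529 lower (14.8%) on the heat shock side, as labelled (limma adjusted p under 0.05). There hsp-16.2, hsp-16.41 and hsp-70 were lower in the arrays labelled heat shock, by log2 differences of -4.86, -4.98 and -3.34 (limma adjusted p = 0.00232, 0.00248 and 0.00232), opposite to their known response, so the directions are those of the labels alone. The 100 genes with the largest positive difference there, at a median of 2.36, had microwave medians of -0.47, 0.072, -0.20, 0.22 and -0.079. The median of their means was -0.098, with 14 of 100 above 0 (48.6% of all genes). Without pair 1 it was -0.008, with 46 of 100 above 0 (45.7% of all genes). The 100 with the largest negative difference, at a median of -2.67, had microwave medians of 0.13, 0.021, -0.12, -0.004 and 0. Of these 54 had a mean above 0, and 31 did without pair 1 (48.6% and 45.7% of all genes). Those higher in the arrays labelled heat shock had a median length of 801 bp and those lower 1880 bp. The 95% interval lay within 1.5-fold for 93 and 91 of each 100 genes, against 98.4% of all genes.

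**Figure D5:**
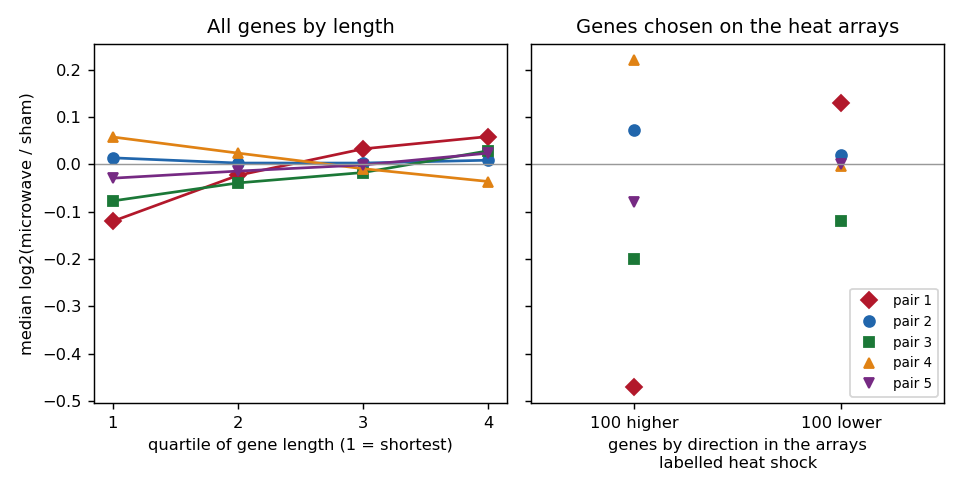
Median log2(microwave/sham) by pair for quartiles of gene length (left) and for the 100 genes highest and 100 lowest in the arrays labelled heat shock (right). Pairs 1, 3 and 5 slope upward with length and pair 4 downward, and the 100 higher genes lie at -0.47 in pair 1 and 0.22 in pair 4.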

How the data were processed

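RNA of whole worms was hybridised to single-colour Affymetrix C. elegans arrays. The values analysed were linear ratios deposited by the authors for 22625 probe sets. The GCOS and MAS 5 software is named per the labels' protocols, and RMA per the submitters' processing notes. Which of them made the ratios, their baseline and a genome build are not given in the sources used here. That each sham array is the baseline of its pair was inferred from sham values of 1 and from the numbers in the titles. The values do not show which sham array a microwave column was divided by, and no label states it. The pairing by number is therefore an assumption. Per the labels' protocols each worm suspension was divided between microwave and sham plates. The p-values measure the spread between pooled samples. The array information sheets were empty, so no scan batch was known.

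From the deposited ratios log2 values were taken and 77 control probe sets left out. R 4.3.3 and limma 3.58.1 fitted the mean of the 5 pair values against 0 with eBayes, two-sided, with Benjamini-Hochberg adjustment over 22548 probe sets or 17118 genes. A gene's value is the mean over its single-gene probe sets (20766 had 1 gene, 887 several, 895 were not listed). Symbols and lengths came from RefSeq (WBcel235) through the platform annotation, and 99.7% of genes had a length. The fits were tested on simulated data. The heat arrays were fitted 2 against 2 without a block. The number of arrays limits the precision, and signal over background is unknown.

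Genes were named by a rule: extremes among genes of one sign in all pairs, extremes of pair 1 and of pairs 2 to 5, up to 4 members per list by absolute mean, and 24 fixed genes (20 could be measured singly). A gene that the rule names is not reported here. The comparison, the 25 lists (439 genes) and the 8 marker lists were chosen with earlier results of these data known, and no list was tested. Alternatives were median centring, quantile normalisation, robust variances, array weights, leaving out the 6711 probe sets whose suffix marks possible cross-matches, the 10 columns with a replicate block, and leaving out each pair.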

Additional observations from a re-analysis of the deposited data

Results flagged for a closer look

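In 60 of 208 sets of 5 pair values examined, 1 pair lay so far from the other four that its gap passed Dixon's 95% critical value of 0.71. Chance flags about 1 in 20 groups where the 5 values share one spread. The distant value was that of pair 1 in 56 sets, of pair 2 in 1, of pair 4 in 3, and of pairs 3 and 5 in 0. Of the sets, many were of genes named because they were extreme in pair 1 or large in their mean, so their flags follow in part from that choice and their count (42 of 138) cannot be read against chance. Of the sets not picked by the rank of their microwave values, 7 of 15 control measures, 8 of 33 list medians, 3 of 20 fixed genes and 0 of 2 medians of heat array genes were flagged. The lists were chosen with earlier results of these data known, and pair 1 had the widest spread over all probe sets. These counts can therefore not be read against that rate either. Many sets share probe sets or arrays, so they are not independent.

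Among the control measures, pair 1 was distant in the bioB spike-in (-1.25), the 5' probe sets of the worm controls (0.96), their 3' minus 5' difference (-0.74), that of actin (-1.05), catalase (-1.89) and Gapdh (-0.62), and the standard deviation of log2 ratios over all probe sets (0.39). Among gene groups it was distant in the medians of the heat shock factor and its regulators (0.32), constitutive cytosolic chaperones (0.47), osmotic response (0.22), cell cycle (0.58), proteasome (0.60), autophagy (0.42), sperm (-0.22) and oocyte and eggshell (0.52).

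Of single genes and probe sets high in pair 1, 1 probe set of vit-4 stood at 4.53 and the gene at 1.62. Among genes picked as extremes, T26A5.2 stood at 1.90, vps-32.1 at 1.85, grp-1 and epg-4 at 1.83, pgm-3 at 1.82, cnep-1 at 1.57, pnk-1 at 1.35, C06A1.4 at 1.33, pod-2 at 1.28 and tin-9.2 at 1.11. Of the protein folding and turnover genes, pdi-3 stood at 0.93, cup-2 at 0.91, atf-4 at 0.90, hsp-6 at 0.40, pas-7 at 1.19, rpn-11 at 1.18, rpn-2 at 0.88 and atg-18 at 1.41. Of the repair, division and stress genes, rad-51 stood at 1.19, clk-2 at 0.94, cep-1 at 0.97, air-1 at 1.29, gpdh-2 at 0.78, skn-1 at 0.86 and pcs-1 at 0.71. The remaining high genes were inx-14 at 0.96, aap-1 at 0.96, pfn-1 at 0.84, tba-1 at 0.56, prp-8 at 1.33, inf-1 at 0.88 and ife-3 at 0.49.

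Low in pair 1 were rrn-3.56 at -2.65, ptps-1 at -1.72, C10G8.4 at -1.64, nssp-41 at -1.37, hpo-2 at -0.72, tbc-11 at -0.67 and ddl-2 at -0.29. In pair 2 the guanylyl cyclase gene gcy-23 was distant at -0.089. In pair 4 him-18 was distant at -0.84, the insulin pathway transcription factor gene daf-16 at -0.17 and the neuropeptide convertase gene egl-3 at -0.22.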

How the results depend on the processing

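Under every alternative run, 0 probe sets and 0 genes passed an adjusted p of 0.05 by limma. The count of probe sets at an unadjusted p under 0.05 was 782 as reported, 1217 under quantile normalisation and 1432 where arrays were weighted, and leaving out each pair in turn gave 390 to 1748. The cause was not tested. The highest count came without pair 4, the pair that correlated negatively with pairs 1, 3 and 5, and the lowest adjusted p over genes was then 0.598. The 10 deposited columns fitted with the replicate block returned the paired result, with 0 calls and 782 at an unadjusted p under 0.05. Genes on one side of 0 in every pair numbered 1015 with 5 pairs and 1628 to 3447 with 4, where agreement of fewer pairs is asked. Without pair 1 the median of 13 of 33 lists and the mean of 26 of 143 named genes had the other sign. Under median centring 2 lists and 0 named genes had, and 7 lists had once possibly cross-matching probe sets were left out. For the 100 genes lowest in the arrays labelled heat shock the median was 0.012, against -0.021 with 50 genes and 0.024 with 200. The depth of the arrays cannot be judged from ratios.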
